A study of Mus musculus with 3 samples.

Results

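Collagen becomes a load-bearing fibre only after a series of enzymes and helpers have acted on it. The 7 genes described here were chosen by name for their part in crosslinking and processing (Lox, Loxl1, Loxl2, Plod1, Plod2, Serpinh1 and Pcolce), and all 7 were found among the 50507 gene rows of the count table. Procollagen chains are hydroxylated on lysine in the endoplasmic reticulum by the lysyl hydroxylases, which Plod1 and Plod2 encode; Plod2 acts mainly on the telopeptides and so favours stable hydroxylysine-derived crosslinks. Serpinh1 encodes HSP47, a chaperone that binds the folded triple helix. Outside the cell Pcolce, procollagen C-endopeptidase enhancer, speeds removal of the C-propeptide, and the lysyl oxidases encoded by Lox, Loxl1 and Loxl2 oxidise lysine residues so that crosslinks form in collagen and elastin. Fibroblasts are a main source of all of these proteins.

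The cells were wild-type mouse embryonic fibroblasts (MEFs) of the BL6 strain at passage 2, taken into early reprogramming. The cells had been transduced with a lentiviral doxycycline-inducible OSKM cassette (Oct4, Sox2, Klf4 and c-Myc) and with rtTA. The share of cells that took up both was not found in the sources used here. The reprogramming medium held 2 µg/mL doxycycline, LIF, 3 µM chiron and 0.25 µM Alk5i, an inhibitor of the TGF-β receptor. It also held 50 µg/mL ascorbic acid, a cofactor of the lysyl hydroxylases. Untransfected cells were collected on days 0 to 6 (Day00 to Day06). The study counts day 0 as the point at which this medium was added. Differences from Day00 therefore cannot tell OSKM induction apart from the other medium components or re-plating. Transfected cells were given 40 nM siRNA, either a pool directed at 1 of 33 targets or a non-targeting control (nt), or were mock-transfected (Mock); they were re-plated after 24 h and were read as day 6. Bulk RNA was profiled by CEL-Seq2, which counts transcript 3′ ends through molecular identifiers. The cells were a mixed population of reprogrammed and other cells, so fewer cells expressing a gene and less RNA per cell cannot be told apart.

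Of 129 libraries, 127 were used, with 29656 to 235292 counts (median 73279). They comprised 21 time course libraries, 98 after a targeting siRNA, 5 Mock and 3 nt. The 5 Mock libraries came from 3 replicate numbers, with 2 columns of one name per number, so their independence is not known. The usual number was 3 libraries per condition, 1 from each of 3 sequenced pools, and siMtf1 had 2. The study describes transfection in triplicate and its sequencing replicates as independent; whether they came from separate fibroblast preparations was not found in the sources used here, so p-values measure the spread between these libraries. All 13 fibroblast markers had counts on Day00, where their summed level was 4807 to 5984 CPM (counts scaled to a common library total), while 10 of 12 epithelial markers and 11 of 12 pluripotency markers were at 0. The knockdowns could hardly be checked at this depth: Wdr5 had 7 counts in siWdr5 and 9 in nt (ratio of nt to siWdr5 1.24, exact 95% interval 0.410 to 3.91), Bard1 had 0 in siBard1 and 2 in nt, and Brca1 had 4 in siBrca1 and 2 in nt (ratio of nt to siBrca1 0.322, interval 0.0291 to 2.25).

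The siRNAs that bear on the results are those against Wdr5, a core subunit of H3K4 methyltransferase complexes, and Bard1, the partner of Brca1. The sense strands listed in the part of the library table used here are shown 5′ to 3′, with the target-matched core in capitals and the overhang in lower case; the first Wdr5 strand is listed against exon 3 and the second against exon 7, and the Bard1 strands against exons 2 and 3.
Wdr5 siRNA, exon 3: CCAGUUAAGCCAAACUAUGtt
Wdr5 siRNA, exon 7: GCCGUUCAUUUCAACCGUGtt
Bard1 siRNA, exon 2: GGAUGUGAGCACAUCUUCUtt
Bard1 siRNA, exon 3: CCUCAAGAUAAACCGACAAtt

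On GRCm38, by the GENCODE annotation, Loxl1 lies at chr9:58287738-58313186 on the minus strand, Loxl2 at chr14:69609068-69695834 on the plus strand and Plod1 at chr4:147909753-147936767 on the minus strand. Plod2 lies at chr9:92542223-92608428 on the plus strand, Serpinh1 at chr7:99345376-99353239 on the minus strand and Pcolce at chr5:137605103-137613784 on the minus strand. Exons of Pcolce overlap those of Fbxo24 on the same strand and those of Loxl2 overlap Mir6950, so that reads there could be split between genes; Lox, Loxl2, Plod2 and Pcolce also have annotated overlapping genes on the opposite strand.

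RefSeq promoter windows on GRCm38.p6 were given for 3 of the 7 genes (Plod1, Serpinh1 and Pcolce), and the 250 bases before the start are shown for Serpinh1 and Pcolce, which were both called higher in siWdr5. Capitals mark matches, on either strand, to GGGNGGG in both sequences, to ACGTG in that of Serpinh1 and to GCGTG in that of Pcolce. Serpinh1 (chr7:99353240-99353489, minus strand) held 1 match to GGGNGGG, found in 44.8% of 32817 promoter windows of this length, and 1 to ACGTG, found in 16.6%. Pcolce (chr5:137611405-137611654, minus strand) held 1 match to GGGNGGG and 1 to GCGTG, found in 28.1%. The letters TGANTCA were in none of the 3 windows (6.75% of all windows held them). The same was true of GAANNTTC, which 6.69% of all windows held, and of CACGTG, which 6.02% held. The windows of Plod1 and Serpinh1 each held CAGAC, found in 42.2% of all. That of Plod1 also held TATAAA, found in 12.4%.
Serpinh1: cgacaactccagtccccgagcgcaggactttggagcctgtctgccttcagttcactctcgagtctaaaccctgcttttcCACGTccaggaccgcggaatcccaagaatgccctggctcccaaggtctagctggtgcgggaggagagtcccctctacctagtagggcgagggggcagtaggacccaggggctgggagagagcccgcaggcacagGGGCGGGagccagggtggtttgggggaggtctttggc
Pcolce: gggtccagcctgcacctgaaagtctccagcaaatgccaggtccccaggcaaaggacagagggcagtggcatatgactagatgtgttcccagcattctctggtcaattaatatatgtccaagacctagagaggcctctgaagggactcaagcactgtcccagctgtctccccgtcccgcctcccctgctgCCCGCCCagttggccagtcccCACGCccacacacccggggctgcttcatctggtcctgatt

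The first question was how these genes behaved as MEFs entered reprogramming. Lox, Loxl1, Loxl2, Plod2 and Serpinh1 were lower on Day06 than on Day00 and Pcolce and Plod1 were not called. The fall of Lox was mostly complete within 1 to 2 days. Levels are given as CPM of the TMM-scaled counts of the tested genes, and calls as an adjusted p under 0.05 in edgeR's quasi-likelihood test with Benjamini-Hochberg adjustment. In this comparison 22.2% of 3013 tested genes were called, 11.5% lower and 10.7% higher, and 5 of the 7 genes were, all lower. Loxl2 and Plod1, which were under the low-count filter, came from a second fit of 3126 genes, of which 22% were called. The summed level of the 7 genes was 2352 ± 13.7 CPM on Day00 (SD, n = 3), 651 ± 125 CPM on Day01 and 547 ± 132 CPM on Day06. Mitochondrial counts made up 13.8 to 15.7% on Day00, 10.8 to 12.5% on Day01 and 16 to 16.6% on Day06, and ribosomal protein counts 1.89 to 2.54% on Day00 and 3.41 to 4.2% on Day06; their part in the falls was not tested.

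Lox, the founding lysyl oxidase, stood at 1108, 1525 and 1092 CPM in the 3 Day00 libraries. On Day01 it was at 229, 220 and 137 CPM and on Day06 at 89.0, 90.4 and 20.4 CPM. All Day01 and Day06 libraries were below every Day00 library. The log2 difference from Day00 was -2.68 ± 0.36 (SE) on Day01, -4.36 ± 0.42 on Day02 and -4.45 ± 0.43 on Day06 (adjusted p = 5.85e-10, 3.65e-18 and 1.42e-18, edgeR), and it lay between -3.97 and -4.10 on days 3 to 5. Of the steps from day to day after Day01, the one from Day01 to Day02 was called for Lox (log2 difference -1.68 ± 0.52, adjusted p = 0.0335), a call lost in 5 of its 8 alternatives, without replicate 2 and without replicate 3 among them.

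Loxl1, whose product is best known for elastic fibre crosslinking, was at 287, 148 and 348 CPM on Day00. It was at 68.8, 73.3 and 79.7 CPM on Day01, at 184, 182 and 173 CPM on Day02, and at 148, 72.3 and 88.6 CPM on Day06. Day02 was the one day on which it was not called against Day00 (log2 difference -0.63 ± 0.38, adjusted p = 0.320, edgeR), and on Day06 the highest library was level with the lowest of Day00. The log2 difference on Day06 was -1.45 ± 0.42 (adjusted p = 0.00499, edgeR); the step from Day01 to Day02 did not pass (1.20 ± 0.48, adjusted p = 0.151; 4.81% of genes were called in this step). Without replicate 3 the Day06 call was lost (edgeR, adjusted p = 0.347), as was that on each other day, and without replicate 1 that on Day04.

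Loxl2, which crosslinks basement membrane collagen, had 9, 2 and 5 counts on Day00 and 0 in each Day06 library. Set against the limit that a count of 0 allows, 3 counts over the 3 libraries, this is at least 6.23-fold lower, and the second fit called it (adjusted p = 0.000243, edgeR). On days 1 to 5 it had 4 to 6 counts over 3 libraries. Without replicate 1, which held 9 of its 16 Day00 counts, the adjusted p was 0.0529 (edgeR), and the Day04 and Day05 calls were lost without replicate 1 or replicate 2.

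Of the lysyl hydroxylases, Plod2 was low on Day01 and again from Day04 on. It was at 185, 191 and 157 CPM on Day00 and at 138, 61.1 and 34.2 CPM on Day01, and it was at 227, 163 and 185 CPM on Day03. From Day03 to Day04 it fell to 89.7, 70.9 and 21.8 CPM, without overlap (log2 difference -1.74 ± 0.43, adjusted p = 0.00176, edgeR; 11.9% of genes were called in this step), and stayed low on Day06 at 44.5, 18.1 and 88.6 CPM. The Day06 difference from Day00 was -1.46 ± 0.45 (adjusted p = 0.00927). That call was lost without replicate 1 and without replicate 2, the Day05 call without any one replicate, the Day01 call without replicate 2 or 3 or the block, and the Day04 call and the step to it without replicate 3. Plod1 had 2, 1 and 3 counts on Day00, 0 in all libraries of Day02 and Day03 and 2 on Day06; no difference was detectable at this depth (ratio of Day06 to Day00 by counts 0.285, exact 95% interval 0.0282 to 1.60).

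Serpinh1, the collagen chaperone gene, was at 431, 318 and 472 CPM on Day00 and at 223, 108 and 143 CPM on Day06, with no overlap. Its log2 difference from Day00 was -1.09 ± 0.31 on Day01 and -1.41 ± 0.31 on Day06 (adjusted p = 0.00963 and 0.000133, edgeR); without replicate 3 the call on each called day was lost, on Day06 at an adjusted p of 0.0781, without replicate 1 those on Day01, Day03 and Day04, and without replicate 2 or the block that on Day03.

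Pcolce was the one gene past the filter with no call on Day06. It stood at 103, 106 and 232 CPM on Day00, 175, 253 and 246 CPM on Day03 and 193, 163 and 136 CPM on Day06, and Day06 lay within the range of Day00 (Day06 against Day00 -0.05 ± 0.39, adjusted p = 0.955). In an F-test over the 7 days, Lox, Loxl1, Loxl2, Plod2, Serpinh1 and Pcolce were called (adjusted p for Pcolce 0.0450) and Plod1 was not, where 42.5% of genes were called. Without replicate 3, Lox, Loxl2 and Plod2 were; without replicate 1 Loxl2 and Pcolce were lost, and Pcolce was lost without replicate 2 or the block too. The calls against Day00 fell on Lox, Loxl1, Plod2 and Serpinh1 on Day01 (9.89% of genes called), Lox on Day02 (11.6%), Lox, Loxl1 and Serpinh1 on Day03 (10.9%), and those with Plod2 and Loxl2 on Day04 (18.7%), Day05 (31.9%) and Day06.

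**Figure D1:**
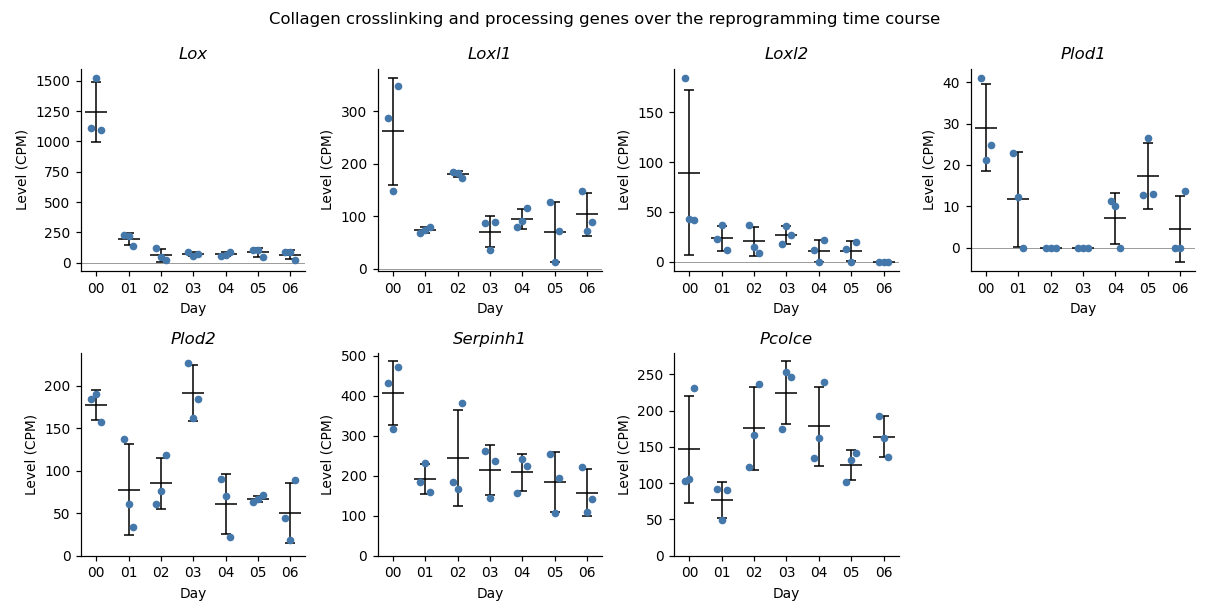
Level in CPM (vertical axes, linear, differing between panels) of the 7 genes on days 0 to 6 (horizontal axes) in untransfected cells; points are libraries, black bars the mean and SD of 3. Lox falls from a mean of 1242 CPM on Day00 to 195 on Day01, while Pcolce ends at 164 CPM, near its Day00 mean of 147 CPM.

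The lysyl oxidase family had another make-up on Day06. Each transcript gives one 3′ tag in this assay, so counts of different genes do not scale with length. Of 345 counts for the 5 family genes on Day00, Lox had 74.8% (exact 95% interval 69.9 to 79.3), and single libraries ran from 68.4 to 88.9%. On Day06 Lox had 31.8% of 44 counts (18.6 to 47.6; single libraries 17.6 to 50%), and Loxl1 had 61.4%. On Day05 it had 44.2% of 52 counts, with single libraries from 29.2 to 88.9%, which overlapped Day00. Loxl3 and Loxl4 gave 1 and 7 of the counts on Day00 and 1 and 2 on Day06. Intervals cover counting error only, and they treat the libraries of a group as one.

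**Figure D2:**
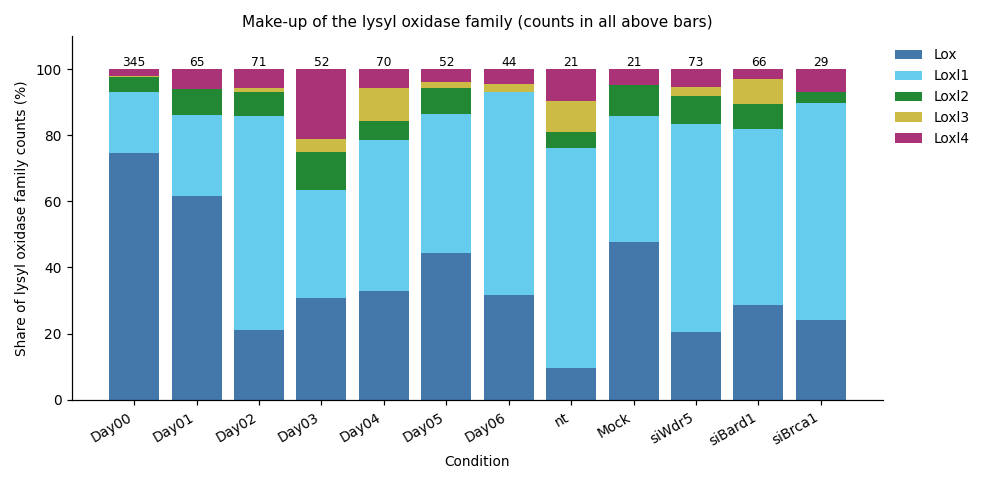
Share of the counts of the 5 lysyl oxidase family genes (vertical axis, %) by condition, pooled over the libraries of a condition; the numbers above the bars are the family counts behind each. Lox takes 74.8% on Day00 and 31.8% on Day06, and nt and Mock rest on 21 counts each.

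Substrate genes were also lower on Day06. Of the fibrillar collagen and elastic fibre genes (13 listed, 12 with counts, 5 past the filter), 6 fell and 0 rose on Day06, beside 11.5% of all tested genes lower and 10.7% higher, with log2 differences of -1.58 ± 0.23 for Col1a1 and -1.67 ± 0.19 for Col1a2 (adjusted p = 1.37e-09 and 1.34e-13, edgeR). The median of the 5 was -1.67, beside -1.45 for the 5 crosslinking and processing genes past the filter and 0.05 for all genes tested. Per 100 counts of 5 fibrillar collagens, Lox went from 29.4 ± 4.03 on Day00 to 4.62 ± 2.61 on Day06 (SD, n = 3). Loxl1 stood at 6.55 ± 3.22 and 7.29 ± 2.30, Serpinh1 at 10.1 ± 3.57 and 11.2 ± 3.44 and Pcolce at 3.52 ± 1.72 and 11.7 ± 0.911. The Lox and Pcolce libraries of the 2 days did not overlap on this scale, whereas those of Loxl1 and Serpinh1 did. How many of all genes would separate so was not counted.

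Of 28 other collagen modifying genes, all with counts but only 3 past the filter, 5 fell on Day06 and 0 rose, beside the same 11.5% lower and 10.7% higher. P4ha3, a prolyl hydroxylase subunit, had 19 counts on Day00 and 1 on Day06 (adjusted p = 0.00162, edgeR, second fit), and Fkbp10, a collagen folding partner of Serpinh1, had 18 and 5 (adjusted p = 0.0479). Mia3, needed for export of procollagen, had 21 and 5, while Creb3l1 and P3h2 had 8 and 7 counts on Day00 and 0 on Day06. P4hb, Colgalt1 and Pcolce2, the 3 past the filter, were not called. Of 12 TGF-β responsive genes 8 fell and 0 rose, among them Pmepa1 (log2 difference -3.62 ± 0.55) and Thbs1 (-2.57 ± 0.20). Of 13 endoplasmic reticulum chaperones 7 fell, Hspa5 with a log2 difference of -1.12 ± 0.20, and 0 of 18 low-oxygen response genes were called. Of the 13 fibroblast markers 8 fell and 2 rose, and their summed level was 2115 to 2834 CPM on Day06. Of 12 epithelial markers Cdh1, Epcam and Krt8 rose (13, 9 and 14 counts on Day06 against 0, 0 and 1 on Day00) and 0 fell; the list summed to 89.0 to 253 CPM on Day06 and 20.5 to 24.8 CPM on Day00, with Cldn3, Cldn7, Esrp1 and Ocln at 0 on Day06. Macrophage markers summed to 132 to 246 CPM on Day00, 12.2 to 68.8 CPM on Day01 and 20.5 to 89.0 CPM on Day06; Lyz2 was the one of 10 that was called (lower, adjusted p = 0.0164 and 0.0349, edgeR), and Csf1r, Tyrobp, Cd14, Aif1, C1qa and C1qb were at 0 on Day00. Muscle markers summed to 41.1 to 99.3 CPM on Day00 and 0 to 40.9 CPM on Day06, where 1 of 8 fell, and Myod1 and Myog were at 0 on both days. Pluripotency markers, of which 0 of 12 were called, summed to 0 to 21.2 CPM on Day00 and 34.1 to 108 CPM on Day06. The part of these cell types in the falls was not tested.

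The transfected controls were compared with each other and with untransfected cells of day 6. Lox and Pcolce were lower in nt than on Day06, and no gene of the 7 was called between Mock and nt. Lox was at 0, 0 and 16.3 CPM in nt, 2 counts in all, against 14 on Day06 (ratio by counts 0.127, exact 95% interval 0.0140 to 0.553). Pcolce was at 33.3, 59.8 and 65.4 CPM in nt, below every Day06 library. The log2 differences were -2.53 ± 0.93 and -1.49 ± 0.47 (adjusted p = 0.0315 and 0.0111, edgeR), and 26.6% of genes were called, 11% lower. Loxl1 stood at 50.0, 59.8 and 57.2 CPM in nt (-0.81 ± 0.54, adjusted p = 0.268), Serpinh1 at 83.3, 105 and 155 CPM and Plod2 at 83.3, 150 and 81.7 CPM, the last 2 with adjusted p of 0.511 and 0.293.

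Both calls were lost without replicate 1 and the Lox call also without replicate 2, and the Lox call was also lost without the replicate block, with Mock added to the control and with only the libraries compared. In Mock, Lox was at 0, 68.7, 115, 49.6 and 29.9 CPM (10 counts in 5 libraries), and its difference from nt was 2.34 ± 0.98 with an adjusted p of 0.263 (edgeR), where 1.56% of genes were called. Of the 7 genes, 1 (Lox) had an unadjusted p under 0.05 between Mock and nt, and DESeq2 and limma each called 0. Mitochondrial counts made up 22.8 to 26.3% of the nt libraries and 16 to 16.6% on Day06; their part in the difference was not tested.

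**Figure D3:**
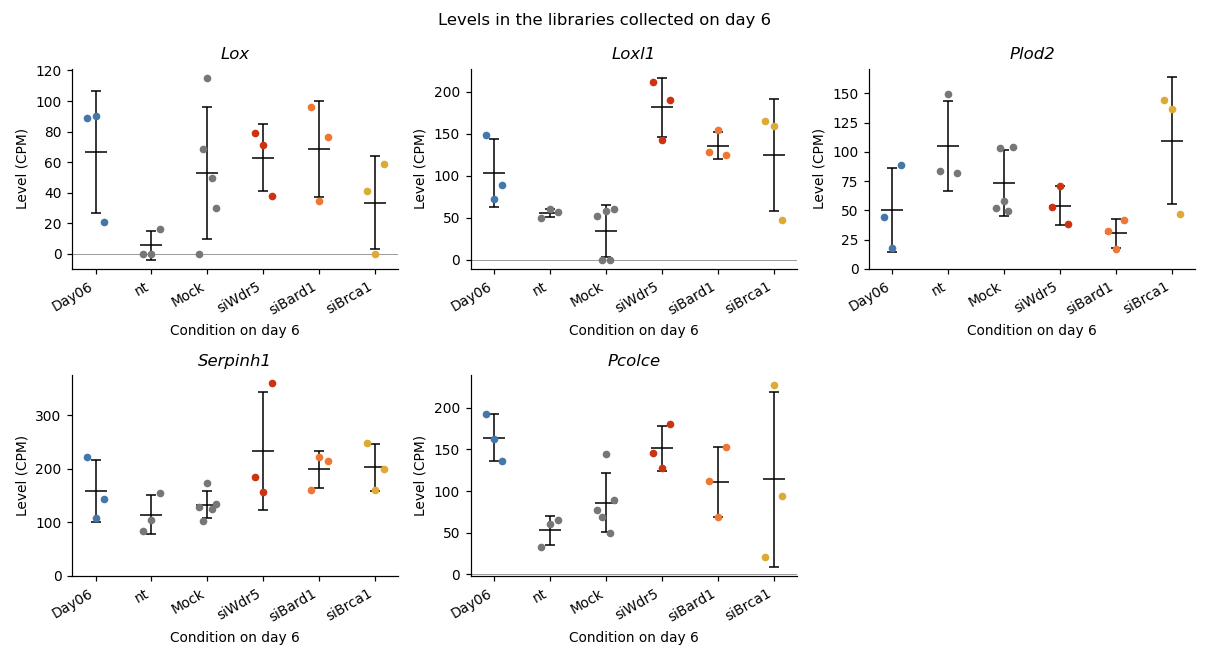
Level in CPM (vertical axes, linear) in untransfected Day06 cells and in day 6 cells after nt, Mock, siWdr5, siBard1 or siBrca1; points are libraries and black bars the mean and SD (n = 3, and 5 for Mock). Lox lies at 0 in 2 of 3 nt libraries, and Loxl1 and Pcolce lie higher in all siWdr5 libraries than in all nt libraries.

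The screen asked which regulators change the course of reprogramming. Of the 231 pairs of these genes and siRNAs, 5 were called against nt: Lox, Loxl1, Serpinh1 and Pcolce were higher in siWdr5, and Lox was higher in siBard1. All siRNA comparisons share the 3 nt libraries, in which Lox and Pcolce had been called lower than on Day06. For each of these 5 calls the siRNA libraries overlapped those of untransfected Day06 cells. Whether the level in nt or that after the siRNA had moved was not tested. Over all tested genes 2.57% of gene and siRNA pairs were called. The called share of all genes ran from 0.133 to 27.2% between siRNAs, and siWdr5 had the highest, so 4 of 7 genes called there, all higher, stand beside 27.2%, or 12.2% called higher. Neither siBrca1 (4.22% of genes called) nor any of the other 30 siRNAs had a call, and 18 of the 231 pairs had an unadjusted p under 0.05, 9 of them in those 30 siRNAs and 0 in siBrca1; DESeq2 and limma called 0 for siBrca1. In siBard1 10.3% of genes were called, 5.54% higher.

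Loxl1 in siWdr5 was at 211, 142 and 190 CPM, each above all nt libraries (50.0 to 59.8 CPM). Its log2 difference was 1.65 ± 0.49 (adjusted p = 0.00603, edgeR). Pcolce was at 145, 128 and 180 CPM, again above all nt libraries (1.46 ± 0.47, adjusted p = 0.0129). Both lay at the top of the means of the 33 siRNAs, of which the median was 54.3 CPM for Loxl1 and 72.1 CPM for Pcolce. Serpinh1 was at 185, 156 and 361 CPM, above all nt libraries, but its lowest 2 libraries were close to the highest nt library at 155 CPM (1.01 ± 0.35, adjusted p = 0.0198). By mean sip53, named here after its values were seen and not called, was above siWdr5 for Serpinh1 (244 against 234 CPM). The 3 calls were lost without replicate 1 and without replicate 3, and that of Serpinh1 without the replicate block.

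Lox was at 79.2, 71.1 and 38.0 CPM in siWdr5 and at 95.8, 34.3 and 76.4 CPM in siBard1, or 15 and 19 counts against 2 in nt. The ratio by counts was 7.80 for siWdr5 (exact 95% interval 1.82 to 70.3) and 9.50 for siBard1 (2.29 to 84.1), with adjusted p of 0.0198 and 0.0160 (edgeR). By mean siBard1 was first of the 33 siRNAs for Lox at 68.8 CPM and siWdr5 followed siCdk1 at 64.6 CPM, which was not called. All 33 siRNAs lay above nt for Lox, and each of these differences rests on the same 2 nt counts. Lox passed the low-count filter through its high levels early in the time course. Its levels on Day06, in nt and in these siRNAs would not have passed it alone. With no filter both calls were lost. Mock had a mean of 52.7 CPM beside 62.8 CPM in siWdr5. With nt and Mock together as control the siWdr5 call was lost (adjusted p ranged from 0.0132 to 0.185 over 10 alternatives) and the siBard1 call was kept; the siBard1 call was lost on leaving out any replicate, and the siWdr5 call without replicate 1 or 2.

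Plod2 was lower than nt in both siRNAs without passing the test. Its lowest means among the 33 siRNAs were those of siBard1 (31.9, 17.1 and 41.7 CPM) and siWdr5 (52.8, 71.1 and 38.0 CPM), below all nt libraries, but neither passed (-1.53 ± 0.55, adjusted p = 0.0537, and -0.94 ± 0.51, adjusted p = 0.155, edgeR). Loxl2 had 6 counts in siWdr5, 5 in siBard1 and 1 in nt, and Plod1 had 2, 6 and 1; no difference was detectable at this depth. Over nt and all siRNAs in an F-test, Loxl1, Serpinh1, Pcolce and Plod2 were called (adjusted p = 1.62e-05, 0.00322, 0.0170 and 0.0375) and Lox, Loxl2 and Plod1 were not, where 44.8% of genes were called. Without replicate 1 or replicate 3 only Loxl1 of these 4 was called, and without replicate 2 or without the block Loxl1 and Serpinh1 were.

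**Figure D4:**
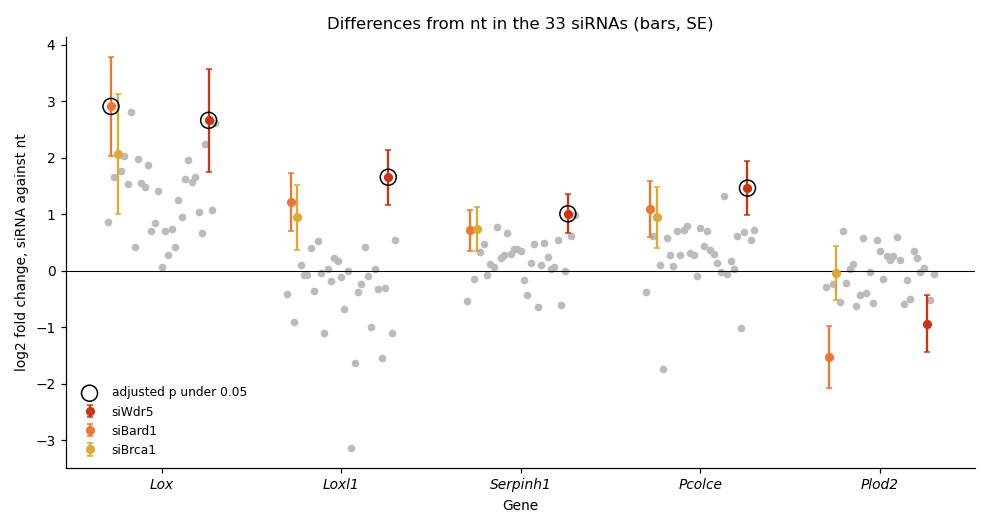
Log2 fold change of each of 33 siRNAs against nt (vertical axis) for the 5 genes past the low-count filter; grey points are siRNAs, coloured points siWdr5, siBard1 and siBrca1 with their SE, and rings mark an adjusted p under 0.05. The 5 rings lie at Lox (siBard1, siWdr5), Loxl1, Serpinh1 and Pcolce (siWdr5), and Plod2 has its lowest point, -1.53, in siBard1.

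Directly compared, siWdr5, siBrca1 and siBard1 gave no call among the 7 genes by edgeR, DESeq2 or limma, and 1 unadjusted p under 0.05 (Plod2, siBrca1 against siBard1). Between siWdr5 and siBard1 the differences were 0.44 ± 0.42 for Loxl1, 0.37 ± 0.40 for Pcolce and -0.25 ± 0.59 for Lox, and 8.36% of genes were called. Between siWdr5 and siBrca1 that for Loxl1 was 0.71 ± 0.47 (9.99% called). Between siBrca1 and siBard1 the difference for Plod2 was 1.49 ± 0.59 (adjusted p = 0.359, edgeR; 0.863% called), while Plod1 and Loxl2, at 1 count each in siBrca1 against 6 and 5 in siBard1, had fitted differences of -1.75 ± 1.33 and -1.48 ± 1.37. With 3 libraries each these tests do not show that the siRNAs act alike.

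Fibrillar collagen genes rose in siWdr5. Col1a1 rose by 2.67 ± 0.27 and Col1a2 by 2.05 ± 0.23 on the log2 scale, and of 12 substrate genes with counts 6 rose and 0 fell, where 12.2% of all genes were called higher and 15.1% lower. Col1a1 and Col1a2 were also called higher in siBard1 (1.18 ± 0.31 and 1.12 ± 0.25) and in siBrca1 (1.30 ± 0.33 and 1.00 ± 0.27), the only substrate genes called there. Per 100 fibrillar collagen counts, Serpinh1 was at 19.0 ± 6.39 in nt and 8.31 ± 3.19 in siWdr5, Pcolce at 8.79 ± 2.97 and 5.46 ± 0.676, and Plod2 at 17.4 ± 6.58 and 1.98 ± 0.684 (SD, n = 3). Plod2 was at 5.71 to 17.1 in the 5 Mock libraries (mean 10.1), at 2.36 ± 0.594 in siBard1 and at 9.40 ± 5.92 in siBrca1 on this scale. Only Plod2 and Serpinh1 of these 3 had no overlap between nt and siWdr5 on this scale. The nt ratios rest on 150 collagen counts in 3 libraries. The summed level of the 7 genes was 341 ± 65.1 CPM in nt and 714 ± 131 CPM in siWdr5, 590 ± 50.3 CPM in siBard1 and 595 ± 119 CPM in siBrca1 (SD, n = 3), and 404 ± 93.9 CPM in Mock (n = 5). The libraries of these 3 siRNAs lay above those of nt, which reached 384 CPM, and so did those of sip53 (588 ± 91.1 CPM), siKmt2e, siIrx1, siHdac1, siMtf1 and siPrmt5; Mock reached 548 CPM and overlapped siBrca1. Ribosomal protein counts made up 2.47 to 3.27% in siWdr5 and 4.07 to 5.37% in nt, and mitochondrial counts 16.7 to 19.7% in siBrca1 and 22.8 to 26.3% in nt; their part in these levels was not tested.

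**Figure D5:**
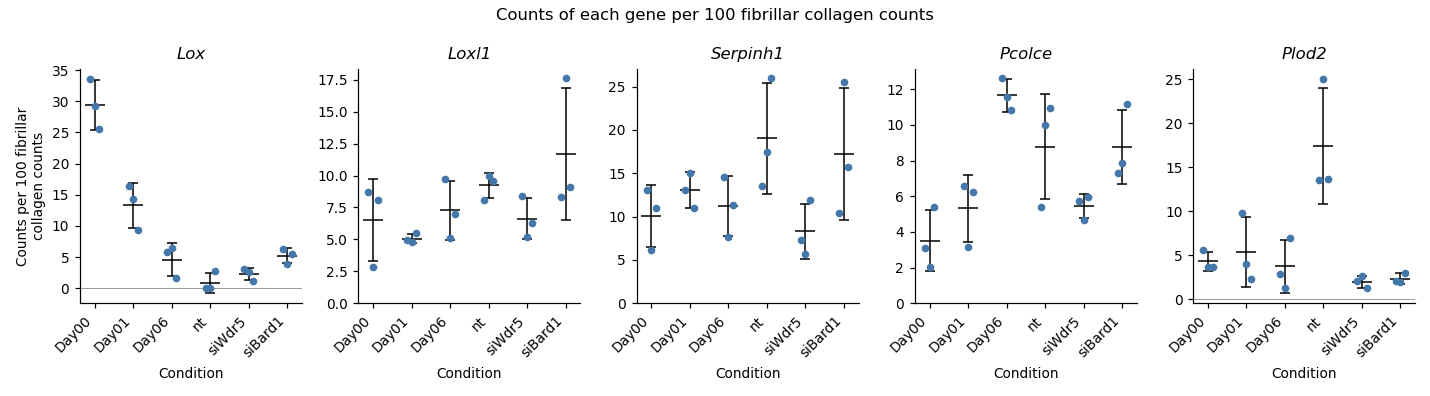
Counts per 100 counts of 5 fibrillar collagen genes (vertical axes, linear) for 5 genes by condition; points are libraries, black bars the mean and SD of 3. Lox goes from 29.4 on Day00 to 4.62 on Day06 and Plod2 from 17.4 in nt to 1.98 in siWdr5.

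Of the 28 other collagen modifying genes, Creb3l1 alone passed in siWdr5, with 8 counts against 0 in nt. The counts that follow stand beside 12.2% of all genes called higher and 15.1% lower in siWdr5, 5.54 and 4.78% in siBard1, and 2.49 and 1.73% in siBrca1. Of 12 TGF-β responsive genes 5 rose in siWdr5, 5 in siBard1 and 2 in siBrca1, and 0 fell in any of these; the log2 difference of Thbs1 was 2.73 ± 0.24, 2.08 ± 0.25 and 2.12 ± 0.26. Of 13 endoplasmic reticulum chaperones 4 rose in siWdr5, and 0 were called in siBard1 or siBrca1. Of 18 low-oxygen response genes 5 fell and 1 rose in siWdr5, 5 fell in siBard1, and 4 fell and 1 rose in siBrca1. Of the same 18 genes, 4 were higher and 0 lower in nt than on Day06, beside 15.6% of all genes higher and 11% lower. Among them were Bnip3 (log2 difference 3.00 ± 0.35) and Pgk1 (1.86 ± 0.20). In Mock 1 of them, Pgk1, was called lower than in nt (-0.70 ± 0.17), where 0.531% of all genes were lower. Of 13 fibroblast markers 3 rose in siBard1 and 1, Dcn, fell in siBrca1, while 6 rose in siWdr5, with a summed level of 4187 to 4499 CPM there, 3020 to 3832 CPM in siBard1, 2662 to 3286 CPM in siBrca1 and 1920 to 2848 CPM in nt. Of 12 epithelial markers 0 were called in these siRNAs, and they summed to 26.4 to 56.9 CPM in siWdr5, 0 to 69.4 CPM in siBard1, 20.7 to 137 CPM in siBrca1 and 131 to 150 CPM in nt. Krt7, Cldn3, Cldn6, Cldn7 and Ocln were at 0 in both nt and siWdr5, and Krt19, Cldn4 and Esrp1 in siWdr5 but not in nt. Muscle markers, of which 0 of 8 were called, summed to 9.49 to 71.1 CPM in siWdr5, 27.8 to 85.7 CPM in siBard1, 20.7 to 70.7 CPM in siBrca1, 0 to 8.17 CPM in nt and 0 to 77.4 CPM in Mock, with Myod1 and Myog at 0 in each. Their part in the differences was not tested.

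Across the 42 condition means the genes most like each one were read as a description, with time course and siRNA conditions pooled. Lox was closest to Pmepa1 (Pearson r 0.86), Actg2 (0.848) and Atp1b1 (0.845), but over the 35 transfected conditions alone these were 0.493, 0.328 and 0.252. Loxl1 was closest to Thbs1 (0.82), Prrx1 (0.819) and Col12a1 (0.814), and kept 0.784, 0.797 and 0.839 over the transfected conditions. Serpinh1 was closest to Timp3 (0.773), Thbs1 (0.747) and Pmepa1 (0.737), and Pcolce to Col12a1 (0.747), Ctsd (0.721) and Atxn7l3b (0.704). Over the transfected conditions these were 0.644, 0.568 and 0.555 for Serpinh1 and 0.618, 0.484 and 0.647 for Pcolce. For Plod2 no gene exceeded 0.493 (Msmo1 and Ypel5), and among the described genes its r with Pcolce was -0.263, while Loxl1 and Serpinh1 had 0.667. Over the transfected conditions Plod2 had 0.3 with Msmo1, 0.303 with Ypel5 and -0.473 with Pcolce, and Loxl1 and Serpinh1 had 0.5. These points share libraries and low counts.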

How the data were processed

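The authors made CEL-Seq2 libraries of bulk RNA, mapped reads to the mouse genome (mm10, GRCm38 in the submitters' processing notes) and deposited UMI-corrected counts per gene, which were not normalized. They also deposited log2 values (log2 CPM after their normalization and regression of batch), used here only as an alternative. The deposited tables gave 129 libraries; 2 with under 10000 counts were left out. Condition was read from column names, replicate from the labels.

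Counts were tested with edgeR 4.0.16 in R 4.3.3 (TMM, default low-count filter by condition, condition plus replicate as a block, all 127 libraries, 83 residual degrees of freedom). DESeq2 1.42.0 and limma 3.58.1 were alternatives. Genes of the lists under the filter came from a second fit with the same scaling. Deviations from condition means correlated at a median of 0.0981 between libraries of one replicate number and -0.0685 between numbers. Each standard error is the log2 difference over the root of its F, and counting intervals are exact at 95%. Correlations used log2 CPM with a prior count of 2. The fit was tested on simulated data. The genes described, the gene lists and the tests were chosen with earlier results of these data known. The rule for named genes took the 7, list genes that passed, and the 3 nearest by correlation; list genes at 0 or past the filter without a call, Loxl3, Loxl4 and siRNAs without a call, other than siBrca1, were named after their values were seen. The result of 1 marker list is not reported here.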

Additional observations from a re-analysis of the deposited data

How the results depend on the processing

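For the 7 genes, RLE size factors, and DESeq2 outside the F-tests, for which it was not run, kept every call count within 1.5 times; RLE moved the median of all genes by -0.16 on the log2 scale for Day06 against Day00, -0.14 for nt against Day06 and 0.17 for siWdr5 against nt. With no low-count filter, which tests 30778 genes, calls went from 5 to 0 for the siRNAs, 2 to 0 for nt against Day06, 23 to 14 for the days against Day00 (6 to 3 for day against day before) and 4 to 1 in the F-test over siRNAs. With limma on the deposited log2 values they were 0, 0, 15 and 1 (siRNAs, nt against Day06, days against Day00, day against day before); the cause was not tested. Without the replicate block nt against Day06 had 1 call, as it had with nt and Mock as control and with only the libraries compared, and the F-test over siRNAs had 2; the block, which rests on weak correlations between libraries of one number, otherwise moved no count by over 1.5 times. Leaving out a replicate gave 3 to 4 calls on Day06, 0 to 2 in nt against Day06, 0 to 3 for the siRNAs, 10 to 17 for the days against Day00, 1 to 5 for day against day before, 3 to 5 in the F-test over days and 1 to 2 over siRNAs, with 2 libraries per condition left. The alternatives for the other days and both F-tests were added after the data were seen.

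Signs turned only for differences that were not called. Plod2 in siBrca1 against nt turned to 0.00779 with DESeq2, 0.00536 with RLE, 0.0720 with limma and 0.16 with nt and Mock as control, and ran from -0.43 to 0.26 on leaving out a replicate. Plod1 turned to 0.0194 with limma and 0.0676 with nt and Mock in nt against Day06 (-2.90 to 2.13 on leaving out a replicate), to -0.36 with nt and Mock in siBrca1, and ran from -0.13 to 3.04 in siWdr5. Loxl2 in siBrca1 turned to -0.18 with nt and Mock and ran from -0.0287 to 0.446. Pcolce on Day06 turned to 0.21 with limma and ran from -0.32 to 0.77, and Serpinh1 in nt against Day06 ran from -0.885 to 0.0267. Over all counts of a library instead of TMM-scaled counts, the 7 genes summed to 2279 CPM on Day00. Low counts (16 to 258 per gene over the Day00 libraries for the genes called there) limit precision throughout.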
